A study of Mus musculus with 16 samples.

Results

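The genes described here are 9 genes of skeletal muscle, Myf5, Myod1, Myog, Pax7, Actc1, Acta1, Myh3, Des and Chrna1, followed through 8 sorted cell fractions of embryonic mouse skin. They were chosen by symbol, and each had exactly 1 row among the 23235 rows of the deposited expression table. RNA was sequenced from skin of mouse embryos at embryonic day 14.5, and each fraction had 2 libraries, numbered 1 and 2, which makes 16 in all. The labels name the fractions without expanding the names, which are read here from general knowledge. Pc stands for placode and Epi for epidermis. DC is the dermal condensate, Fb the fibroblasts, Sch the Schwann cells, DCSch condensate and Schwann cells together, Mc the melanocytes, and Neg the cells negative for the sorting markers. Strain, genotype and sorting markers were not given in the sources used here, and all fractions share the same tissue and stage. Whether the 2 libraries of a fraction come from different litters is not stated. The p-values therefore reflect the spread between libraries, part of which may be technical or shared by libraries of the same number.

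Skeletal muscle of the trunk and limbs arises from somite cells that express the paired-box factors Pax3 or Pax7. The basic helix-loop-helix (bHLH) factors Myf5, Myod1, Myog (myogenin) and Myf6 then take these cells through commitment and differentiation. The bHLH factors bind the short DNA motif called the E-box. Differentiated myoblasts fuse into myotubes, build sarcomeres from actin, myosin and troponin, hold them in place with desmin filaments, and place acetylcholine receptors on the membrane. Muscle at this stage uses embryonic and cardiac forms of several of these proteins before the adult forms take over. In mouse trunk skin a thin sheet of skeletal muscle, the panniculus carnosus, lies beneath the dermis and the fat layer.

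All 9 muscle genes had their highest mean in the Neg fraction. Expression is given as FPKM, fragments scaled by transcript length and library size, so levels can be set side by side between genes. Actc1, the cardiac alpha-actin that embryonic skeletal muscle also uses, was the most abundant at 2247 and 2109 FPKM in the 2 Neg libraries. Myog, which drives terminal differentiation, followed at 116 and 95.4 FPKM. Both Neg libraries exceeded all 14 other libraries for 8 of the 9 genes, as they did for 6.39% of the 14171 rows that were tested. Acta1 was the exception. In a sorted bulk sample, fewer cells of a type and less RNA per cell cannot be told apart.

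**Figure D1:**
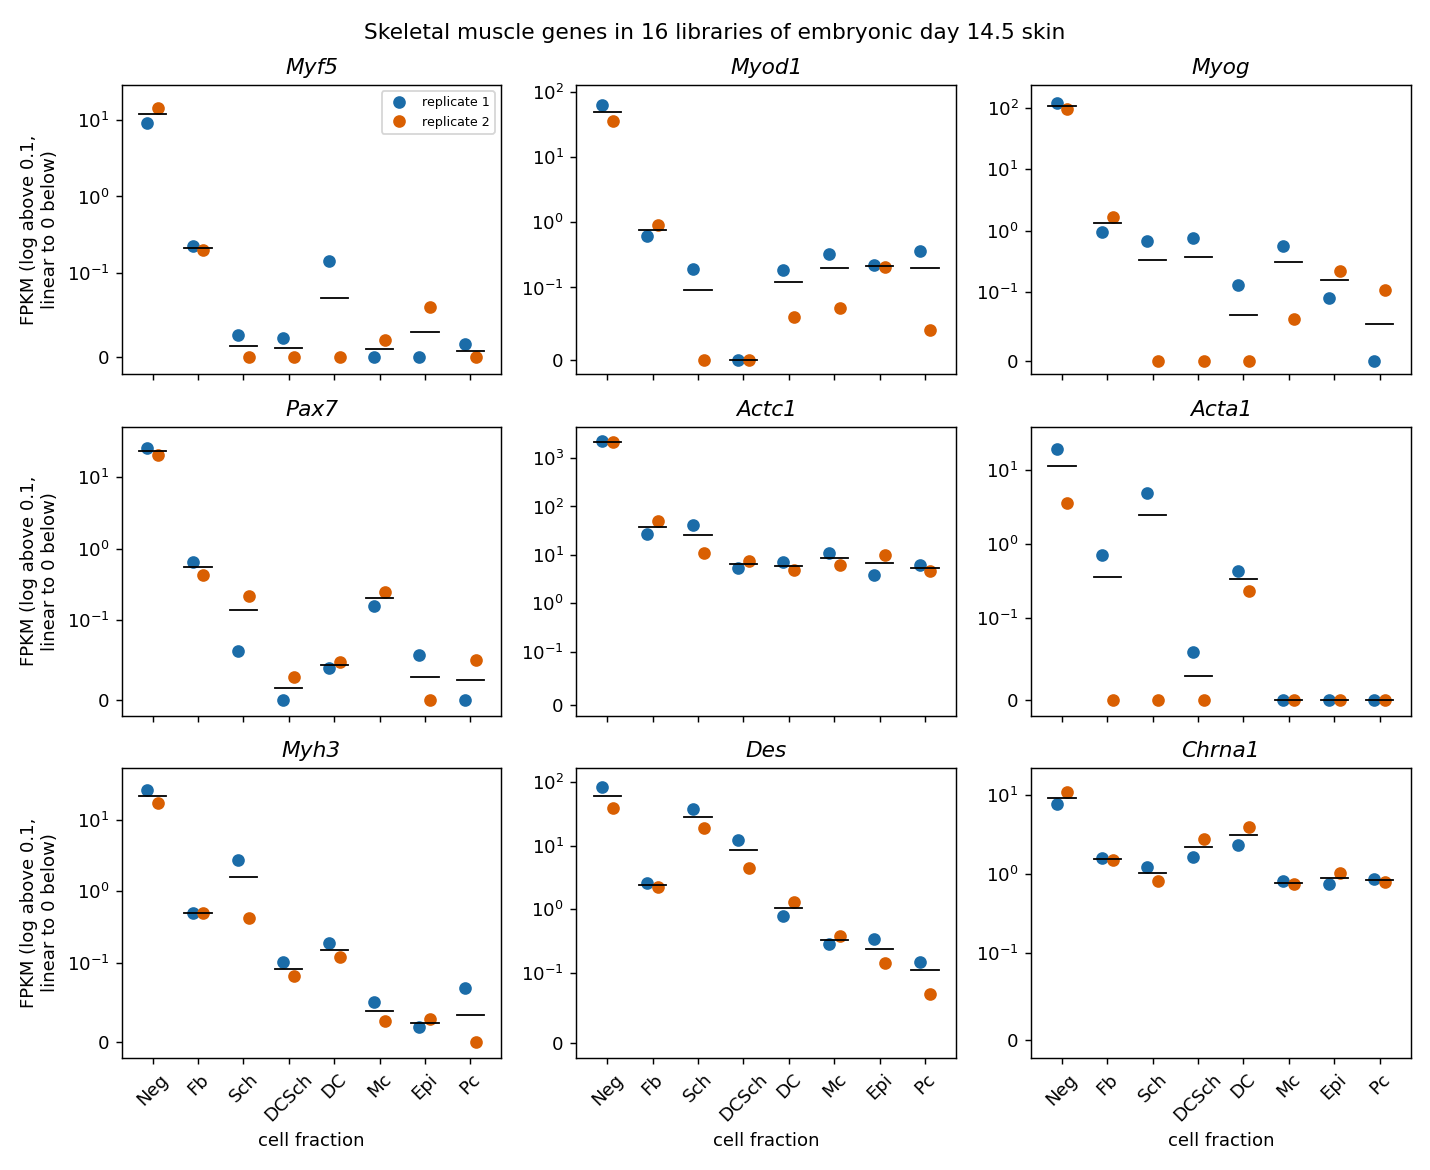
FPKM of the 9 muscle genes in the 16 libraries (y axis, logarithmic above 0.1 and linear from 0.1 down to 0) by cell fraction (x axis). Points are libraries, coloured by replicate number, and black bars are the means of the 2 libraries. The Neg points stand above the other 14 in every panel but that of Acta1, where 1 Sch point lies between the Neg points.

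A gene was called between fractions by limma at a Benjamini-Hochberg adjusted p under 0.05, over all 14171 rows, with an absolute difference of at least 1 in mean log2(FPKM + 1). All 9 genes passed the filter on low values, which asked for 1 FPKM or more in 2 or more libraries. For 6 of them, Myf5, Myod1, Myog, Pax7, Acta1 and Myh3, this was through the Neg libraries, since at most 1 other library reached 1 FPKM. A higher level in Neg than in most other fractions was largely fixed by this for those 6. The counts below, and the p-values of those 6 between Neg and other fractions, therefore describe the genes. Such counts and p-values are no support beyond the levels of the genes. Against the equally weighted mean of the other 7 fractions, 9 of 9 were called higher in Neg, where 8.29% of all rows were. Their median difference was 4.21 on the log2(FPKM + 1) scale and that of all rows -0.03. The 9 genes were also called higher against Pc (13.1% of all rows), Epi (13.3%), DC (13.9%), Fb (7.77%), DCSch (8.65%) and Mc (9.98%), taken singly. Against Sch, 7 of 9 were called higher, where 9.43% of all rows were, and Acta1 and Des were not. These 7 comparisons share the 2 Neg libraries and are not independent of one another. In all 7 of them, 7 of the 9 genes were called higher in Neg, as were 3.67% of all rows. With the replicate number as a block in the model, 9 of 9 were, and 3.83% of all rows.

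The regulators come first. Pax7, the paired-box factor of muscle progenitors and later of satellite cells, stood at 25.0 and 20.3 FPKM in Neg. Its highest value elsewhere was 0.658 FPKM, in Fb replicate 1, and its median over the 14 other libraries was 0.0534 FPKM. Myf5, the earliest of the myogenic bHLH factors, stood at 9.29 and 14.5 FPKM in Neg. It was listed at 0 in 6 of the 14 other libraries and reached at most 0.222 FPKM in them. Myf5 was thus the lowest of the 4 regulators in Neg, and its 2 Neg libraries did not overlap with those of the other 3.

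Myod1, the bHLH factor that commits cells to the muscle lineage, stood at 64.5 and 36.2 FPKM in Neg and at no more than 0.914 FPKM elsewhere. Myog reached at most 1.68 FPKM outside Neg, in Fb replicate 2. The Neg level of Myog was 1.81 times that of Myod1 in replicate 1 and 2.64 times in replicate 2. Myod1 was in turn 6.94 and 2.49 times as high as Myf5. The order of the means, Myog over Myod1 over Pax7 over Myf5, held in each Neg library and no gene's range overlapped its neighbour's.

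Differences between Neg and the mean of the other 7 fractions were 6.35 (SE 0.24) for Myog, 5.35 (SE 0.19) for Myod1, 4.38 (SE 0.12) for Pax7 and 3.59 (SE 0.13) for Myf5 on the log2(FPKM + 1) scale. The limma adjusted p-values were 5.14e-09, 3.35e-09, 8.63e-10 and 4.38e-09. All 4 genes passed the filter through Neg, so these p-values are no support beyond the levels. Because a pseudocount of 1 was added, these differences understate the fold change of genes that are near 0 outside Neg. Fb held the second-highest mean for all 4 regulators, between 1.25% and 2.40% of the Neg mean, and its 2 libraries lay above both libraries of the next fraction for each. The Fb values themselves were low. Myod1, for example, stood at 0.610 and 0.914 FPKM there.

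**Figure D2:**
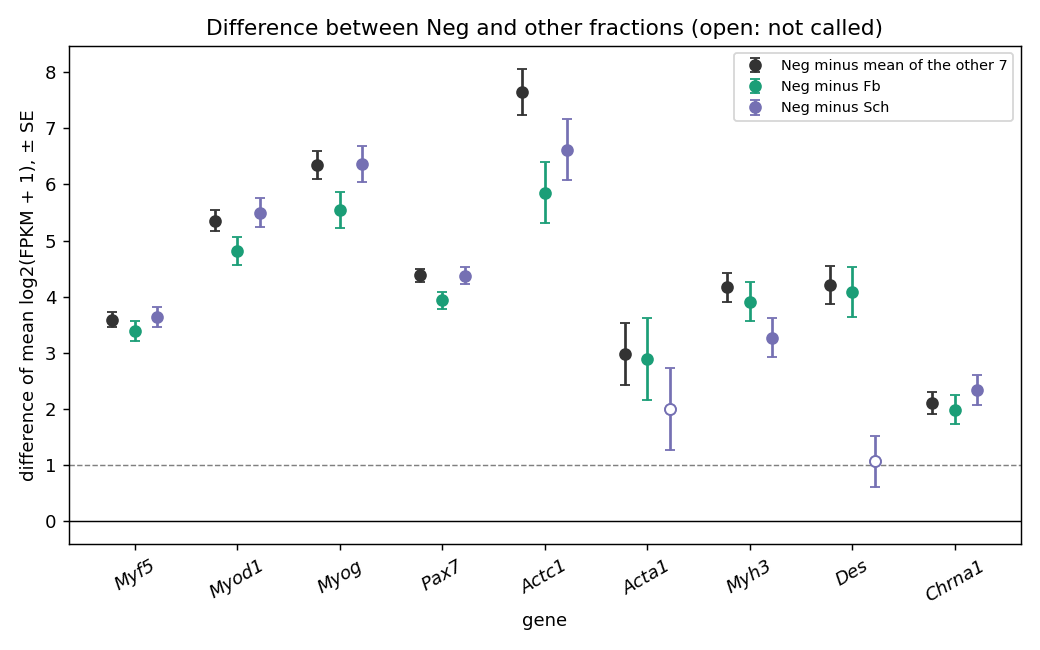
Difference in mean log2(FPKM + 1) between Neg and the mean of the other 7 fractions, Fb and Sch (y axis) for the 9 muscle genes (x axis), with bars of 1 SE from the limma fit. Open circles mark the differences that were not called, Acta1 and Des against Sch, and the dashed line marks a difference of 1.

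The genes of the contractile apparatus did not share one second place. Myh3, the embryonic myosin heavy chain, stood at 26.8 and 17.2 FPKM in Neg. In Sch it was 2.79 FPKM in replicate 1 and 0.429 in replicate 2, and in Fb 0.502 and 0.497. Its difference between Neg and the mean of the other 7 fractions was 4.17 (SE 0.26) on the log2(FPKM + 1) scale, with a limma adjusted p of 2.50e-07. Its locus (chr11:67078300-67102291 on mm10) also holds the microRNA gene Mir6923.

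Actc1 was detected in every library, from 3.83 FPKM in Epi replicate 1 upward. Fb followed Neg with 26.9 and 49.6 FPKM, and Sch had 40.6 FPKM in replicate 1 and 10.8 in replicate 2, so that the Fb and Sch libraries overlapped. The remaining 5 fractions lay between 3.83 and 11.1 FPKM, and each overlapped the next in order. Between Neg and the mean of the other 7 fractions the difference of Actc1 was 7.65 (SE 0.42) on the log2(FPKM + 1) scale, with a limma adjusted p of 8.17e-08.

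Acta1, the alpha-actin of adult skeletal muscle, had the widest ratio between the 2 Neg libraries of the 9 genes, 5.40, at 19.6 FPKM in replicate 1 and 3.62 in replicate 2. Outside Neg it was listed at 0 in 9 of 14 libraries, and Sch replicate 1, at 4.93 FPKM, lay above Neg replicate 2. Sch replicate 2 was listed at 0. The difference between Neg and the mean of the other 7 fractions was 2.98 (SE 0.55) on the log2(FPKM + 1) scale, with a limma adjusted p of 0.00181. It was 1.90, with a limma adjusted p of 0.0711, when Neg replicate 1 was left out, so that call rests on that library, as do those against the 6 single fractions for which Acta1 was called. Against Sch, Acta1 was 2.00 higher in Neg on the same scale (limma adjusted p = 0.0751), and 3.29 higher without Sch replicate 1 (limma adjusted p = 0.00377). It was 3.08 higher without Neg replicate 2 (limma adjusted p = 0.0140). The difference was 0.92 without Neg replicate 1 (limma adjusted p = 0.501) and 0.72 without Sch replicate 2 (limma adjusted p = 0.560).

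Actc1 and Acta1 have similar coding sequences. Their longest open reading frames, both 1131 bases, were identical at 86.3% of positions, with a longest identical run of 29 bases. The frame of Acta2, smooth muscle alpha-actin, has the same length. It was identical to that of Actc1 at 82.6% of positions and to that of Acta1 at 85.4%. Fragments that fall on conserved stretches can be assigned to any of these genes. Actc1 was 115 times as high as Acta1 in Neg replicate 1 and 582 times as high in replicate 2. In Fb, Acta2 stood at 26.8 and 35.7 FPKM, beside 26.9 and 49.6 for Actc1. In Sch it stood at 7.30 and 3.40 FPKM, beside 40.6 and 10.8. The part of such fragments in the Acta1 and Actc1 values was not tested.

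Des encodes desmin, the intermediate filament of muscle cells. It stood at 82.1 and 39.5 FPKM in Neg, followed by Sch with 37.5 and 19.0 FPKM and DCSch with 12.4 and 4.43. The Sch mean was 46.4% of the Neg mean, the highest such share of the 9 genes outside Neg, before Chrna1 in DC at 33.5%. Fb followed at 2.61 and 2.26 FPKM, and no library of the remaining fractions exceeded 1.31 FPKM. The libraries of Neg, Sch, DCSch and Fb did not overlap for Des, although the higher Sch library lay just under the lower Neg library.

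Between Neg and Sch, Des differed by 1.07 (SE 0.45) on the log2(FPKM + 1) scale, with a limma adjusted p of 0.121. That difference was 0.55 without Neg replicate 1 (limma adjusted p = 0.566) and 0.59 without Sch replicate 2 (limma adjusted p = 0.548). With the replicate block, Des (limma adjusted p = 0.0362) and Acta1 (limma adjusted p = 0.0284) were both called against Sch, which made 9 of 9. Smooth muscle and mural cells also use desmin. Of 14 genes listed for those cells, Myh11, the smooth muscle myosin, stood at 1.04 and 0.251 FPKM in Sch and Acta2, smooth muscle alpha-actin, at 7.30 and 3.40. The 14 genes summed to 242 and 201 FPKM in the Sch libraries, and Mcam, an adhesion molecule also found outside the vessel wall, made up 193 and 170 of that. Tagln stood at 5.80 and 4.67 FPKM in Sch, its highest mean outside Neg. Actg2, at 1.25 and 3.04 FPKM, and Lmod1, at 0.746 and 0.703, had their highest means of all 8 fractions in Sch. Of the 14 genes, 12 were tested, and by limma 8 were called higher in Neg than in Sch (9.43% of all rows) and 1 lower. The part of such cells in the Des level of Sch was not tested.

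Chrna1, the alpha subunit of the muscle acetylcholine receptor, had the smallest difference of the 9, at 2.11 (SE 0.20) on the log2(FPKM + 1) scale between Neg and the mean of the other 7 fractions, with a limma adjusted p of 7.37e-06. It stood at 7.59 and 10.95 FPKM in Neg and at 0.737 FPKM or more in every other library. DC came second with 2.29 and 3.93 FPKM, and DCSch next with 1.63 and 2.79, and those libraries overlapped. Fb followed at 1.61 and 1.49 FPKM. In contrast to the 4 regulators, Chrna1 was thus listed at 0 in no library. Its values in Pc, Epi and Mc were low, from 0.737 to 1.02 FPKM, and overlapped those of Myod1 in Fb (0.610 and 0.914). The Chrna1 locus (chr2:73563281-73580338 on mm10) also overlaps the long noncoding gene Gm30940 in the RefSeq annotation, and whether the counting used strand is not given in the sources used here.

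The 250 bases before the annotated start were read for 8 of the 9 genes from RefSeq promoter sequences on build GRCm38.p6, since no entry for Myod1 was matched. Sequences are shown for 5 genes, chosen to carry the motifs of the factors described above: Myog at chr1:134289754-134290003 (plus strand), Acta1 at chr8:123894776-123895025 (minus strand), Actc1 at chr2:114052876-114053125 (minus strand), Des at chr1:75360042-75360291 (plus strand) and Chrna1 at chr2:73580339-73580588 (minus strand). Each is written 5′ to 3′ on the strand of its gene and ends at the base before the start. Capitals mark E-boxes (CANNTG) and the CArG box, the binding motif of serum response factor, a regulator of actin genes.
Myog: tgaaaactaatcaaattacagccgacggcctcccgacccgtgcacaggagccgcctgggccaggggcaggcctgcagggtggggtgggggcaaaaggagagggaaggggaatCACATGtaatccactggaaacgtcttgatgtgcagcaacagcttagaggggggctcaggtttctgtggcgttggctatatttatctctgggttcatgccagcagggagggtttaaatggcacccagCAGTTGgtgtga
Acta1: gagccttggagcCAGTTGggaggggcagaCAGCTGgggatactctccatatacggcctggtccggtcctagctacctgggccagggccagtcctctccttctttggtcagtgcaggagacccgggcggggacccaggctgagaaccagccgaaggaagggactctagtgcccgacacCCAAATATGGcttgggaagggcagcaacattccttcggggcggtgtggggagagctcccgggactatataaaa
Actc1: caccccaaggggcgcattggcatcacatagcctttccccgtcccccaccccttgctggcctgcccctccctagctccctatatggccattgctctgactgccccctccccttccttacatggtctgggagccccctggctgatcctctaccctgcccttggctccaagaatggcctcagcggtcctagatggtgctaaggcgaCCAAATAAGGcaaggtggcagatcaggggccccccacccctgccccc
Des: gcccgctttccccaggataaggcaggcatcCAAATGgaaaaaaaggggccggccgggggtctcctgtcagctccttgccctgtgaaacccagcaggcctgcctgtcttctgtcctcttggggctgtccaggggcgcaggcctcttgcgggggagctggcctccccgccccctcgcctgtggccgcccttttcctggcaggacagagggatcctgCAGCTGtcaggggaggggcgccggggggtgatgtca
Chrna1: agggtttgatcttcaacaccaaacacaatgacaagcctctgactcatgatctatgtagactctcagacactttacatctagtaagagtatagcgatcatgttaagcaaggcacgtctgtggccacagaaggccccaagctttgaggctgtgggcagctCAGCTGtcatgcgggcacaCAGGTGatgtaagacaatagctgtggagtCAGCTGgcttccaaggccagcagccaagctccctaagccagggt

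An E-box was found in 5 of the 8 windows and in 66.2% of all 32851 windows of that length, with both strands searched. The windows of Myf5 and Pax7, which held none, lie inside the RefSeq gene, whose upstream end lies beyond the start used here. That of Myh3 overlaps its RefSeq gene in part. The narrower form CAGCTG, which is 1 of the E-boxes, was found in 3 of 8 windows, those of Acta1, Des and Chrna1, and in 13% of all windows. Chrna1 held 2 copies, as did 1.26% of all windows, beginning 92 and 44 bases before its start. In Des the copy began 36 bases before the start, and in Acta1 221. Myog held CACATG and CAGTTG, at 138 and 12 bases before the start. A CArG box was found in Actc1 (47 bases before the start) and Acta1 (73 bases before) and in 1.47% of all windows. These matches describe the letters in the window and are not evidence of binding.

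Outside Neg, a limma F test asked whether the genes differed among the other fractions. The test over the 7 other fractions called 3 of 9, Actc1, Des and Chrna1, where 46.9% of all rows were called. For Myf5, Myod1 and Pax7, which stayed under 1 FPKM outside Neg, the range could not reach 1 on this scale, so the test could not call them and the count is not read against the share of all rows. The largest differences between fraction means were 4.64 for Des (adjusted p = 1.69e-05), 2.59 for Actc1 (adjusted p = 0.00812) and 1.18 for Chrna1 (adjusted p = 0.0105) on the log2(FPKM + 1) scale. With the replicate block, Myog and Myh3 were added, which made 5 of 9. Chrna1 was no longer called without DC replicate 2, its highest library outside Neg, which left 2 of 9, and Myh3 was added without Sch replicate 2, which made 4.

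Fibroblasts and dermal condensate cells are the mesenchymal pair of the study. By limma, 0 of the 9 genes were called higher in DC than in Fb (6.13% of all rows) and 2 were called lower (9.20% of all rows). Myf5, Myod1, Pax7, Acta1 and Myh3 stayed under 1 FPKM in every DC and Fb library. Their difference could not reach 1 on this scale, so the counts are not read against the shares of all rows. Chrna1 alone had an unadjusted p under 0.05 with a higher level in DC, but its difference was 0.66 on the log2(FPKM + 1) scale, under the threshold of 1 (limma adjusted p = 0.103). Actc1 stood at 7.09 and 4.82 FPKM in DC and 26.9 and 49.6 in Fb, a difference of -2.45 on the log2(FPKM + 1) scale (limma adjusted p = 0.00703). Myog stood at 0.132 FPKM in DC replicate 1 and was listed at 0 in DC replicate 2, and it had 0.961 and 1.68 FPKM in Fb, a difference of -1.11 (limma adjusted p = 0.0290). Neither call held without DC replicate 2 (adjusted p = 0.0526 and 0.125) or without Fb replicate 2 (adjusted p = 0.0663 and 0.179), and that of Myog also failed without DC replicate 1 (adjusted p = 0.0765). At levels near 1 FPKM the Myog difference is between values that few fragments carry.

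Within the Sch fraction the contractile genes were unevenly spread over the 2 libraries. Of the 9 genes, 8 were higher in Sch replicate 1 than in replicate 2, Pax7 being the exception, against 52.2% of the rows tested that were above 0 in Sch. Their FPKM summed to 87.9 in replicate 1 and 31.2 in replicate 2. Among the other sarcomere genes above 0 in Sch, 24 of 26 were higher in replicate 1, while among the other myogenic regulators 6 of 14 were. Mylpf, a fast myosin light chain, stood at 12.3 and 2.96 FPKM, and Myl4, the embryonic light chain, at 5.31 and 0.218. In Fb, 6 of the 9 genes were higher in replicate 1, against 48.0% of rows. In Neg, 7 of the 9 genes were, against 48.0% of the rows at 1 FPKM or more in both Neg libraries. Among 27 other sarcomere genes at that level in Neg, 15 were higher in replicate 1.

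Sch replicate 1 also held more keratinocyte RNA. The 6 keratinocyte genes summed to 182 FPKM there and 29.6 in Sch replicate 2, with 6 of 6 higher in replicate 1, whereas the 8 Schwann cell genes summed to 1712 and 1944 FPKM. The part of these differences in the muscle values was not tested. Without Sch replicate 1 the count of genes higher in Neg than in Sch was 8 of 9, Acta1 being added, and Des differed by 1.54 (limma adjusted p = 0.0670).

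**Figure D3:**
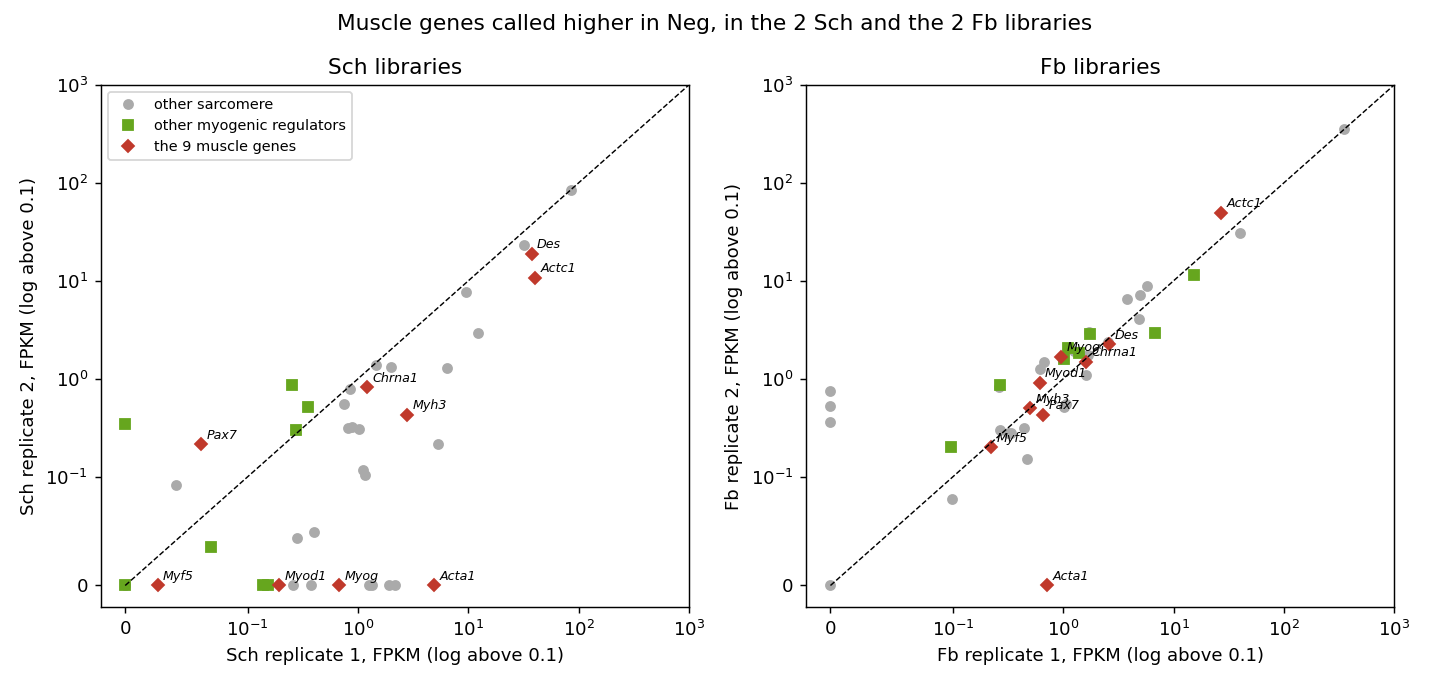
FPKM in replicate 1 (x axis) and replicate 2 (y axis) of Sch (left) and Fb (right) for the 9 muscle genes and the genes of 2 further lists that were called higher in Neg, on axes that are logarithmic above 0.1 and linear below. The dashed line marks equal values. In Sch most contractile genes lie under the line, Acta1 at 4.93 and 0 FPKM, and in Fb the points lie on both sides of it.

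Further muscle genes were followed through 5 lists drawn up from general knowledge, with 119 genes in all. Of these, 86 passed the filter on low values, and 59 of the 86 were called higher in Neg than in the mean of the other 7 fractions and 2 lower, where 8.29% and 4.33% of all rows were. Genes that pass the filter through Neg alone were bound to differ, so these counts describe the lists and do not support the result for the 9 genes.

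Among 18 other myogenic regulators, 15 were tested, 8 were higher and 1 was lower in Neg. Msc (musculin, a bHLH factor of muscle precursors) stood at 87.4 and 62.4 FPKM in Neg, and no other library exceeded 1.83. Vgll2, a transcription cofactor of muscle differentiation, stood at 19.4 and 11.9 FPKM and reached at most 0.199 outside Neg. The differences of Msc and Vgll2 between Neg and the mean of the other 7 fractions were 5.81 and 3.95 on the log2(FPKM + 1) scale.

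Pax3 was the regulator that was lower in Neg. It stood at 0.287 and 0.290 FPKM there, while Pax7 was 87.3 and 70.0 times as high in the same libraries. Its highest levels were in Mc, at 59.3 and 68.7 FPKM, and Sch, at 26.2 and 29.2. Pax3 is also known from neural crest cells and the melanocytes and Schwann cells they form. Myf6, the remaining myogenic bHLH factor, stood at 0.539 and 0.555 FPKM in Neg and did not pass the filter.

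Genes of fusion and of the myoblast surface were measured by 16 symbols, of which 13 were tested, 8 were higher and 1, Sdc4, was lower. The 2 muscle fusogens were among the highest: Tmem8c (myomaker) stood at 88.2 and 77.4 FPKM and Gm7325 (myomixer) at 66.7 and 47.6. Fgfr4, a growth factor receptor of myoblasts, stood at 67.1 and 41.2 FPKM, and Cdh15 (M-cadherin) at 35.5 and 17.7. None of these 4 exceeded 1.73 FPKM outside Neg.

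Of 46 other sarcomere genes, 29 were tested and 26 were higher in Neg. The 4 with the largest differences were Tnnt2 (cardiac troponin T, 6.67 on the log2(FPKM + 1) scale), Tnnt1 (slow troponin T, 5.60), Neb (nebulin, 5.25) and Myl4 (4.92). Tnnt2 stood at 285 and 213 FPKM in Neg and Tnnt1 at 246 and 158. The other 17 genes did not reach 1 FPKM in 2 libraries.

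Several muscle proteins exist in embryonic and adult or in slow and fast forms, and many of these differed widely in level within Neg. Myh3 was the highest of 6 myosin heavy chain genes, 2.29 and 2.84 times the level of Myh8, the perinatal form, which stood at 11.7 and 6.05 FPKM. Myh7, Myh1, Myh2 and Myh4 stood at 0.304 FPKM or less. Troponin T was dominated by Tnnt2 and Tnnt1, 31.1 and 26.8 times the level of Tnnt3 (fast) in replicate 1 and 46.9 and 34.9 times in replicate 2. For troponin I, Tnni1 (slow) and Tnni2 (fast) were close, at 23.6 and 15.3 against 20.4 and 20.8 FPKM, and their libraries overlapped. Myl4 was 6.02 and 2.91 times as high as Myl1.

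The acetylcholine receptor also has fetal and adult forms. Its gamma subunit belongs to the fetal receptor, and the epsilon subunit replaces it after birth. Chrng stood at 6.88 and 5.65 FPKM in Neg and Chrne was listed at 0 in both libraries. The other subunits Chrnb1 and Chrnd stood at 38.1 and 35.6 and at 7.71 and 7.13 FPKM, beside 7.59 and 10.95 for Chrna1. Chrnd did not exceed 0.106 FPKM outside Neg, whereas Chrna1 was at 0.737 or more in every library.

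**Figure D4:**
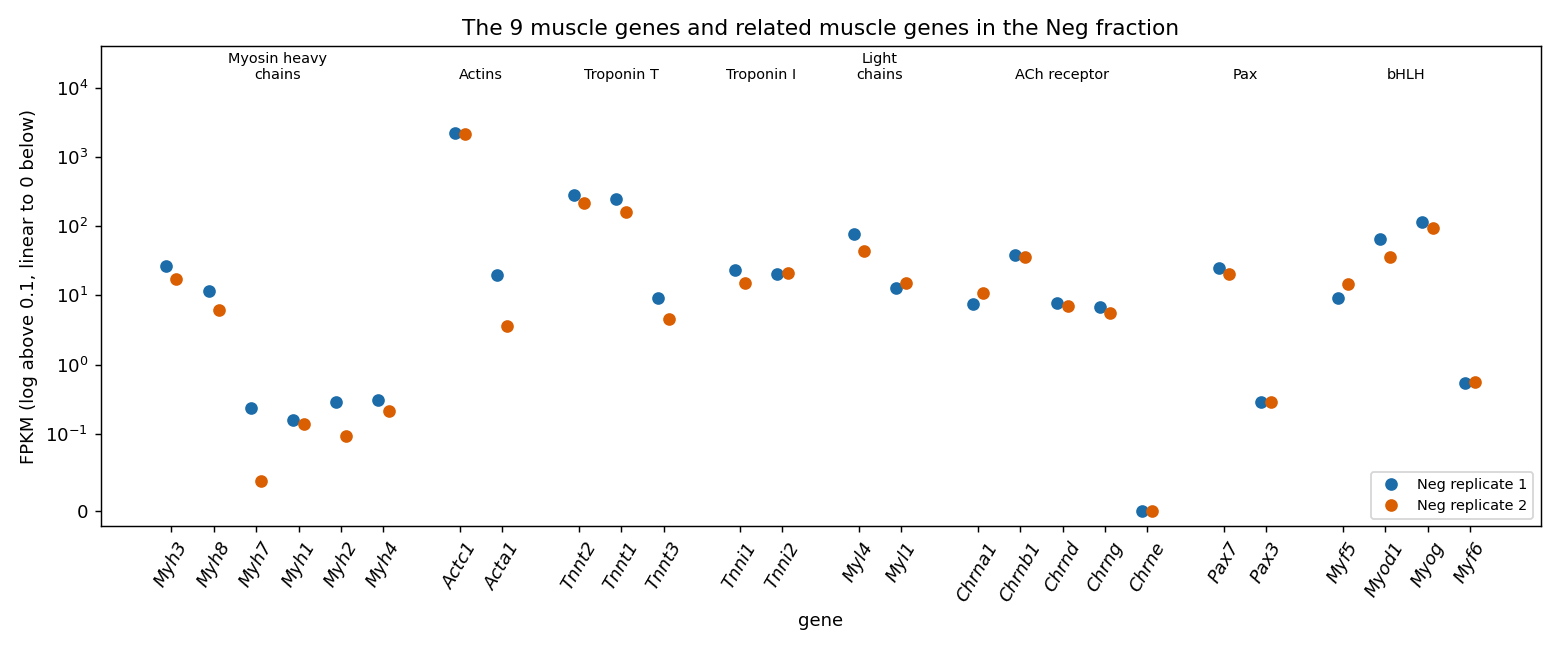
FPKM in the 2 Neg libraries (y axis, logarithmic above 0.1 and linear from 0.1 down to 0) for the 9 muscle genes other than Des and for related genes, grouped by protein family (x axis). Myh3 and Myh8 stand above the other heavy chains shown, Actc1 above Acta1, Tnnt2 and Tnnt1 above Tnnt3, Chrng above Chrne, and Pax7 above Pax3.

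Of 29 further genes of the neuromuscular junction, muscle membrane and calcium handling, 23 were tested and 15 were higher in Neg. Musk, the kinase that clusters acetylcholine receptors, stood at 15.1 and 17.6 FPKM, and Ryr1, the calcium release channel, at 12.7 and 7.36. Their differences were 4.02 and 3.08 on the log2(FPKM + 1) scale, and those of Chrnb1 and Chrnd 3.98 and 3.02. Of 10 genes of muscle metabolism, 6 were tested and 2 were higher, Cox6a2 at 2.14 and 1.03 FPKM and Pygm at 2.86 and 1.22, and neither was called without Neg replicate 1.

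Outside Neg, the library in which a muscle gene was highest differed between groups of genes. Of the 8 other regulators called higher in Neg, 5 had it in Fb and none in Sch. Of the 26 sarcomere genes, 11 had it in Fb, 8 in Sch, each time in replicate 1, and 7 in another fraction. Among the 9 genes it was Fb for 5 (the 4 regulators and Actc1), Sch replicate 1 for 3 (Acta1, Myh3 and Des) and DC for Chrna1. This is given as a description without a test.

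The rows most like the 9 genes were found by Pearson correlation of log2(FPKM + 1) with their mean profile over the 16 libraries. They were Chrng (r = 0.987), Tnni1 (0.986), Tmem8c (0.985), Unc45b, a myosin chaperone (0.983), Fam46c (0.981), Neb (0.981), Myl1 (0.980), Scn3b, a sodium channel subunit (0.980), Fgfr4 (0.980) and 6330409D20Rik (0.980). A correlation of at least 0.95 was reached by 154 of 14138 rows, or 1.09%. The correlations are set by the contrast between 2 Neg libraries and 14 others, and any gene specific to Neg scores high. Within the 14 libraries without Neg, the correlation between Acta1 and Myh3 was 0.922 and that between Myod1 and Des -0.21, both given as descriptions. They were the highest and the lowest among all pairs of the 9 genes. Sch replicate 1 was the highest of the 14 libraries for both Acta1 (4.93 FPKM) and Myh3 (2.79), and Acta1 was listed at 0 in 9 of them.

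Markers of other cell types moved with the muscle genes. In Neg, 12 of 13 tested endothelial genes, 8 of 9 erythroid, 6 of 6 mast cell and 4 of 7 macrophage and leukocyte genes were called higher than in the mean of the other 7 fractions. The share of all rows called so was 8.29%. As with the muscle lists, genes that pass the filter through Neg alone were bound to differ, so these counts only describe the lists. The endothelial genes summed to 607 and 398 FPKM in Neg and to 1337 and 387 in DC. That list holds Sox18, which is also listed for the dermal condensate. The 10 erythroid genes summed to 36867 and 43586 FPKM in Neg. Of 12 tested smooth muscle and mural genes, 6 were higher. Acta2 stood at 53.3 and 65.1 FPKM in Neg and at 26.8 and 35.7 in Fb, and Myh11 at 1.28 and 0.593 FPKM in Neg. Levels in Neg are thus averages over a fraction that carries markers of several cell types, and the part of those cells in the muscle values was not tested.

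Actc1 and Tnnt2 are also heart genes, so cardiac markers were read beside them. Of 9 listed, 4 were tested. Between Neg and the mean of the other 7 fractions, these 4 had limma adjusted p-values from 0.36 to 0.946. In the limma F test among the 7 fractions other than Neg, 3 of the 4 were called, where 46.9% of all rows were. The 9 listed summed to 2.99 and 1.53 FPKM in Neg. Nkx2-5, Hand2 and Myl7, the atrial light chain, were listed at 0 in both Neg libraries, and Nppa, the atrial peptide, stood at 0.364 and 0.187 FPKM. Nkx2-5 was listed at 0 in all 16 libraries. Tnni3, cardiac troponin I, stood at 1.86 and 0.752 FPKM in Neg, and Gata4 at 0.0532 and 0.108, with 0 in the 14 other libraries.

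The scale of the values has a limit for Neg. Rescaling each library to the same total FPKM moved the median difference of all rows between Neg and the mean of the other 7 fractions from -0.03 to -0.22 on the log2 scale, and the calls from 1175 higher and 613 lower to 973 higher and 868 lower. All 9 genes were still called higher. The total FPKM of a library ran from 439201 to 606437, and sequencing depth is not given in the sources used here.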

How the data were processed

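RNA of 8 sorted fractions of mouse skin was measured in 16 libraries, 2 per fraction. The authors deposited 1 table of FPKM values, made with TopHat2 2.0.3, Bowtie2 and Cufflinks 2.1.1 on mm10, per the submitters' processing notes. Per the labels' protocols, 6 ng of RNA was amplified with a NuGEN kit before library construction, which can distort low values. Fragment counts could not be recovered from the steps of low values in more than 3 of 15 libraries, so depth is unknown and no count test was run.

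Values were moved to log2(FPKM + 1). The model was fitted to 14171 rows, those that reached 1 FPKM in 2 or more libraries, by limma 3.58.1 (R 4.3.3), with 1 mean per fraction, a trended robust variance and Benjamini-Hochberg adjustment over all rows. The method was tested on simulated data. All 9 genes were named. From each further muscle list, up to 4 genes called higher by the largest difference, up to 2 called lower and the developmental alternatives were named, and Mylpf was added after its values were seen. Some genes that this rule takes are not reported here. For other cell types Acta2, Myh11, Nppa and Myl7 were named by rule, and Mcam, Tagln, Actg2, Lmod1, Tnni3, Gata4, Nkx2-5 and Hand2 after their values were seen. The genes and lists were chosen with earlier results of these data known.

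Alternatives were other pseudocounts (0.1 and 5), filters and scalings, a replicate block, a fit without DCSch, a plain variance and leaving out each library. Replicate numbers were read as pairing the libraries, because deviations from the fraction means correlated across genes in 28 of 28 pairs of fractions (0.148 to 0.656, median 0.491). The data, not the labels, gave this pairing. The main fit does not use it, so shifts shared by libraries of the same number are part of its spread. Results that use the pairing are those given with the replicate block. Promoter sequences came from RefSeq (GRCm38.p6) and coding sequences from GENCODE transcripts.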

Additional observations from a re-analysis of the deposited data

How the results depend on the processing

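No called difference of the 9 genes changed direction under any alternative run. The counts of genes higher in Neg ran from 8 to 9 when single libraries were left out (7 to 8 against Sch), and Acta1 was the gene lost, in each case without Neg replicate 1, against DC also without DC replicate 2 and against Fb also without Fb replicate 2. The filter of 5 FPKM left Acta1 untested, and a pseudocount of 5 lost Chrna1 against DC and DCSch, where its difference fell under 1. With the replicate block the count of genes differing among the 7 fractions other than Neg was 5 in place of 3, and it was also 5 with a pseudocount of 0.1. It ran from 2 to 4 when single libraries were left out. Apart from this and the 2 calls against Sch given above, the replicate block changed no count of the 9 genes or of the muscle lists against the mean of the other 7 fractions. The genes differing between DC and Fb numbered 1 with a pseudocount of 5. With a pseudocount of 0.1 they numbered 2 but were not the same, since Myog was lost (limma adjusted p = 0.0678) and Pax7 gained (-2.14, limma adjusted p = 0.00588). Their number was 0 to 2 when single libraries were left out. With a pseudocount of 5, the genes called higher in Neg numbered 4 of the other myogenic regulators, 7 of the junction list and 0 of the metabolism list. The filter of 5 FPKM, which tests fewer genes, left 6 of the junction list and 0 of the metabolism list. Scaling to the same total FPKM left 1 of the metabolism list, and leaving out single libraries 0 to 2. Over all rows, a pseudocount of 5 gave 550 higher and 236 lower in Neg, and the replicate block 1200 and 650, against 1175 and 613. Causes of these changes were not tested. With 2 libraries per fraction and no counts, differences near 1 FPKM are the least certain.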
